A study of Mus musculus with 30 samples.

Results

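Hearts taken 1 day after carbon black had been placed in the airways were compared with hearts from vehicle mice killed on the same day. The exposed group held 6 female C57BL/6 mice that had received 162 µg of Printex 90, carbon black nanoparticles sold as a pigment, by intratracheal instillation. The control group held 4 female C57BL/6 mice that had received the vehicle, saline with acellular bronchoalveolar lavage fluid from mice of the same strain, which the particles were also suspended in. Group membership was taken from the source name of each sample, which gave 10 of the 30 samples of the series, and every tested mouse miRNA was described in them. All mice had been bought at 5 to 6 weeks of age, and their age at exposure is not given in the sources used here. Each mouse gave its own RNA, from a random heart section containing both ventricles, and 1 array. The series text states 6 mice per group, and 4 vehicle mice of day 1 were analysed here. Mouse numbers below are names only, given in accession order.

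MicroRNAs (miRNAs) are short RNAs that pair through their seed, bases 2 to 8, with messenger RNAs and lower their translation or stability. Heart muscle is known for a small set of very abundant ones, made from myosin genes or from muscle-specific loci. Other miRNAs of a heart section come from endothelium, fibroblasts and the blood left in the tissue. Particles in the lung are known to bring neutrophils into the airways and to induce acute phase proteins within days, and the comparison bears on miRNA levels in the heart that early.

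Mature sequences are shown for miRNAs that the results below turn on, as RefSeq gives them with mouse build GRCm38.p6, written 5′ to 3′ with the seed in capitals. Of 44 array names looked up, 43 matched. Both arms of the miR-144 hairpin and miR-451, made from 1 locus on chromosome 11, were among the higher miRNAs with the smallest p, and each has a seed of its own:
miR-144*: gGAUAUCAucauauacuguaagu
miR-144: uACAGUAUagaugauguacu
miR-451: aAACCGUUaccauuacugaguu
Below vehicle stood miR-204 (chromosome 19) and miR-211 (chromosome 7), which share a seed, and miR-146a (chromosome 11), which has another:
miR-204: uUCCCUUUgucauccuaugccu
miR-211: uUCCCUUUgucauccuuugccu
miR-146a: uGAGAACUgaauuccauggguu
Members of the miR-17 seed family, from chromosomes 14 and 5, are shown with their cluster neighbours miR-19a and miR-25, which have other seeds:
miR-20a: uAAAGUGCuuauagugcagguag
miR-93: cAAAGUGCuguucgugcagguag
miR-106b: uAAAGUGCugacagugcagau
miR-19a: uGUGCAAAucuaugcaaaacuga
miR-25: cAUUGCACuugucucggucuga

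A different set of sequences is shown for what they have in common, a run of alternating C and A or of alternating G and U, here in capitals wherever the letters ACACAC or GUGUGU occur (overlapping matches joined, the mature strand only):
miR-466i-3p: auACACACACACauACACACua
miR-467f: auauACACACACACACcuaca
miR-466q: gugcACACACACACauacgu
miR-669n: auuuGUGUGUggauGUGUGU
miR-1187: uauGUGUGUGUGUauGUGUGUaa
miR-574-5p: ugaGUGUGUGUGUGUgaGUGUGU
miR-329: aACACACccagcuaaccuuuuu
Such a run was found in 28 of 1679 mature mouse sequences of the RefSeq table (1.67%), and in 12 of the 94 tested miRNAs whose name could be matched to it. Some of these names had been looked up because the results turn on them. Of 34 tested miRNAs placed within the gene Sfmbt2, described below, 0 had a name that matched the RefSeq table. These shares therefore rest on unlike sets and were not compared.

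The array holds probes for 1079 mouse miRNAs, and in these hearts 356 gave a signal above background on 1 array or more and 229 on all 10. Levels are log2 signal on a common scale, where 1 unit is a 2-fold difference and 4.08 is the floor. Heart markers were bright in all 10 mice, with miR-1a at a mean of 16.00 ± 0.15 (SD, n = 4) in vehicle hearts. Of 16 markers of airway and other epithelium on the array, 15 were detected on 0 of 10 arrays, and miR-31 was the exception. The share of spots well above background was 25.5%, 27.3%, 26.6%, 22.4%, 19.2% and 20.7% in Printex 90 mice 1 to 6, and 24.2%, 27.4%, 26.0% and 25.3% in vehicle mice 1 to 4. Printex 90 mice 4, 5 and 6 therefore had dimmer arrays than every vehicle mouse, and the differences of miRNAs described at length are also given without these 3 mice.

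No miRNA differed between the groups past an adjusted p of 0.05: limma with Benjamini-Hochberg adjustment called 0 of 306 tested miRNAs (0%), and the smallest adjusted p was 0.742. At an unadjusted p under 0.05 there were 2 (0.654%), miR-204 and miR-144*. For 0 of 306 miRNAs (0%) were the 6 exposed and 4 vehicle values apart without overlap. Printex 90 values were above vehicle for 108 miRNAs and below for 198, and the median difference over all of them was −0.07 on the log2 scale. As processed here, the data bound how large a difference could be. The 95% interval lay within 2-fold in either direction for 229 of 306 miRNAs and within 1.5-fold for 175. Of the 102 brightest miRNAs 92 lay within 2-fold, and of the 102 dimmest 74 did. The counts over all 306 depend on the processing: within 2-fold and 1.5-fold they were 195 and 33 with no scaling. With the deposited value table they were 299 and 283. With 6 and 4 mice an absence of calls is not evidence that levels were equal, and the values that follow did not pass.

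**Figure D1:**
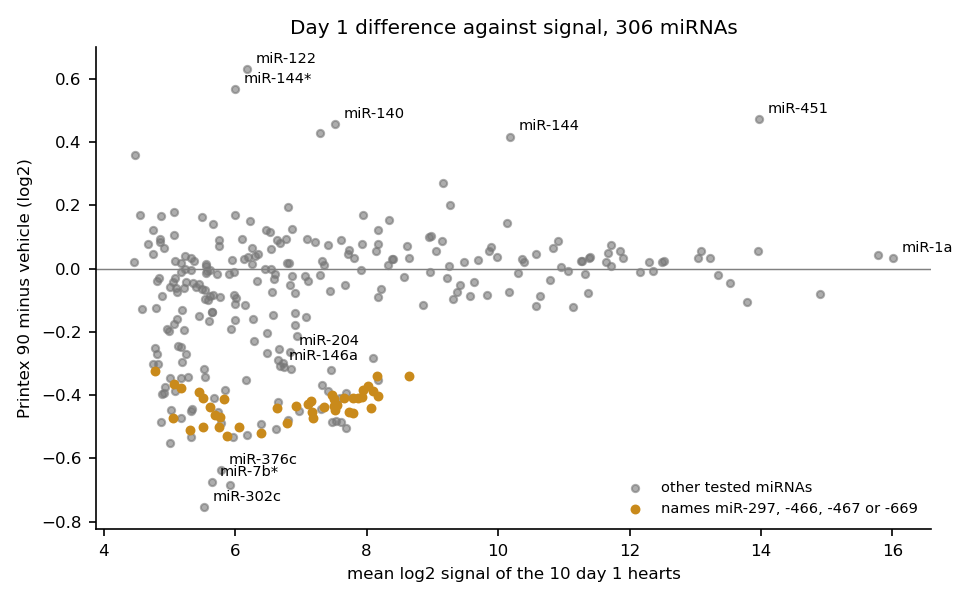
Log2 difference (Printex 90 minus vehicle, day 1) of 306 miRNAs against their mean log2 signal over the 10 hearts, 1 point per miRNA. Bright miRNAs such as miR-1a lie near 0 and miR-144, miR-144* and miR-451 stand above; the miR-297, miR-466, miR-467 and miR-669 names, in orange, lie between −0.53 and −0.32.

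Red cell miRNAs from the chromosome 11 locus took 3 of the 5 smallest p among higher miRNAs. miR-451, the most abundant miRNA of red cells and a rare one that is cut by Argonaute2 rather than Dicer, was at 13.82, 14.11, 13.64, 14.33, 14.65 and 14.67 in the 6 exposed hearts. In vehicle hearts it was at 13.38, 13.94, 13.82 and 13.78. Of the 6 exposed values 4 lay above every vehicle value, 3 of them from the dimmer arrays, and the others overlapped. The difference was 0.47 ± 0.24 (SE), or 1.39-fold with a 95% interval of 0.986 to 1.95, and the exact permutation p over all 210 assignments of the mice was 0.0905 (two-sided).

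miR-144, the guide strand made from the same transcript, was at 10.03, 10.38, 9.81, 10.34, 10.93 and 10.83 after Printex 90 and at 9.64, 10.25, 10.05 and 9.94 after vehicle. Its difference was 0.42 ± 0.24 (exact permutation p = 0.148, two-sided). For miR-144*, the other arm of that hairpin, the exposed values were 5.90, 6.14, 5.63, 6.48, 6.98 and 6.58, and the vehicle values 5.36, 5.98, 5.80 and 5.74. The same mice were high and low for all 3 miRNAs: Printex 90 mouse 5 or 6 was highest, and vehicle mouse 1 lowest. miR-144* differed by 0.57 ± 0.26, which is 1.48-fold with a 95% interval of 1.02 to 2.15 (exact permutation p = 0.0762, two-sided). Of 5 miRNAs tested in this way none went below 0.05.

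The other tested member of the red cell list, miR-486*, the passenger strand of a miRNA shared by red cells and muscle, had a difference of 0.00 ± 0.08 and a range over mice of 6.26 to 6.63. The list had a median of 0.44, where that of all tested miRNAs was −0.07. In whole tissue, fewer or more cells of a type and less or more RNA per cell cannot be told apart. Without Printex 90 mice 4, 5 and 6, the mice with the dimmer arrays, the differences were 0.12 for miR-451, 0.10 for miR-144 and 0.17 for miR-144*. Within the 4 slides, each holding 1 vehicle mouse of day 1, miR-451 stood between 0.16 and 0.88 above it, highest on the slide of Printex 90 mice 5 and 6. Of all alternatives run for miR-144, miR-144* and miR-451, none turned the direction.

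**Figure D2:**
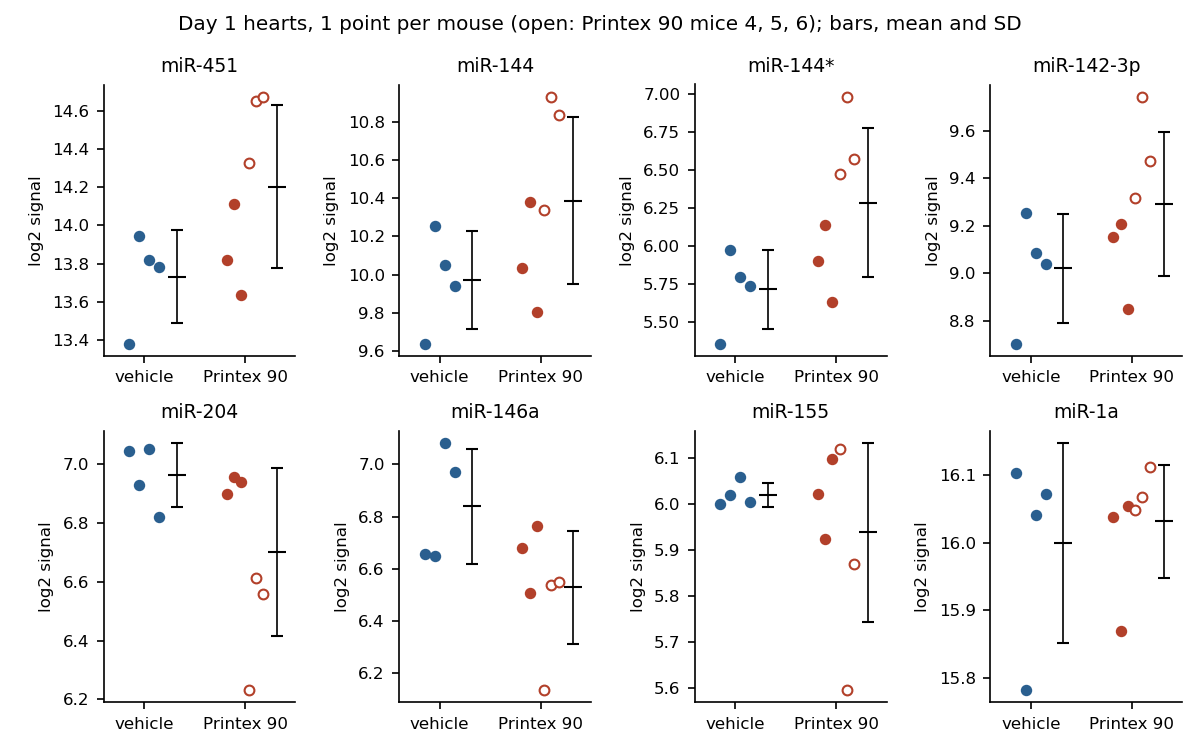
Log2 signal of 8 miRNAs in each day 1 heart, 1 point per mouse, with the mean and SD of each group beside the points; open points are Printex 90 mice 4, 5 and 6, and each panel has its own scale. The open points are highest for miR-451 and lowest for miR-204, and the groups overlap in every panel.

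White blood cell miRNAs did not move as 1 group. miR-142-3p, made throughout the blood lineage, was at 9.15, 9.21, 8.85, 9.32, 9.74 and 9.47 in exposed and 8.71, 9.26, 9.09 and 9.04 in vehicle hearts, a difference of 0.27 ± 0.18 that was 0.05 without the 3 mice with dimmer arrays. Of 6 exposed values 5 lay above the vehicle mean, and Printex 90 mouse 5 was again highest. Its other arm, miR-142-5p, differed by 0.12 ± 0.16, or 0.04 without them. miR-223, the leading miRNA of neutrophils, was within 8.04 to 8.29 in exposed and 8.14 to 8.39 in vehicle hearts, a difference of −0.07 ± 0.10 that turned to 0.11 with scaling on all probes. Lymphocyte miR-150 was at −0.12 ± 0.18 and turned positive under 6 alternatives. The leukocyte list thus had 2 members on each side of vehicle and a median of 0.03, and 0 passed.

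Of 12 inflammation-induced miRNAs on the array, 5 could be tested, and 7, among them miR-146b, miR-147 and miR-135b, were detected on 0 of 10 arrays. miR-146a, which NF-κB induces and which lowers Traf6 and Irak1, was at 6.68, 6.51, 6.77, 6.14, 6.54 and 6.55 after Printex 90 and at 6.66, 6.65, 7.08 and 6.97 after vehicle. All 6 exposed values were below the vehicle mean and 4 were below every vehicle value, while Printex 90 mice 1 and 3 lay among the vehicle mice. The difference was −0.31 ± 0.17, a ratio of 0.807 with a 95% interval of 0.636 to 1.02 (exact permutation p = 0.0667, two-sided), and no alternative turned it. Without the 3 mice with dimmer arrays it was −0.19.

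miR-155, the classic miRNA of activated macrophages and lymphocytes, was at 6.02, 5.92, 6.10, 6.12, 5.60 and 5.87 in exposed and 6.00, 6.02, 6.06 and 6.00 in vehicle hearts. Vehicle mice were nearly alike and exposed mice lay on both sides of them, so the difference was −0.08 ± 0.09 and changed sign under 4 alternatives. miR-21, induced in stressed heart fibroblasts, was at 10.56, 10.40, 10.51, 10.38, 11.24 and 10.55 against 10.47, 10.53, 10.59 and 10.65. Only Printex 90 mouse 5 was above the vehicle range, and the difference of 0.05 ± 0.11 was −0.08 without it. The activity-induced pair miR-132 and miR-212-3p, neighbours on chromosome 11, were at −0.25 ± 0.17 and −0.20 ± 0.37, or −0.11 and 0.27 without the 3 mice with dimmer arrays. The list's median was −0.20, or 0.04 with normexp background correction and 0.06 with the deposited value table, and 0 of 5 passed.

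miR-204, made from an intron of the ion channel gene Trpm3, had the smallest p of all. It was at 6.90, 6.96, 6.94, 6.23, 6.61 and 6.56 in exposed and 7.05, 6.93, 7.05 and 6.82 in vehicle hearts. Printex 90 mice 4, 5 and 6 were below every vehicle mouse, and mice 1, 2 and 3 lay within the vehicle range. The difference was −0.26 ± 0.12, a ratio of 0.834 with a 95% interval of 0.707 to 0.984 (adjusted p = 0.742 by limma, exact permutation p = 0.110, two-sided), and without those 3 mice it was −0.03. miR-211, its family member with the same seed, was at 5.83, 6.10, 5.65, 4.67, 5.78 and 5.02 against 6.35, 5.94, 5.99 and 5.57. That difference was −0.45 ± 0.27, and −0.10 without the 3 mice. The hairpin's other arm, miR-211*, stood at 0.15 ± 0.24, or 0.01 without them.

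There were 7 more miRNAs among the 10 lower values with the smallest p. miR-329, from the imprinted Dlk1-Dio3 region on chromosome 12, was at 4.53, 4.90, 4.66, 4.10, 5.14 and 4.40 in exposed and 5.13, 5.15, 5.19 and 4.96 in vehicle hearts. It was detected on 4 of 4 vehicle and 2 of 6 Printex 90 arrays, the largest loss of detection in the comparison, and 5 of 6 exposed values were below every vehicle value. Its difference of −0.49 ± 0.28 was −0.41 without the 3 mice with dimmer arrays but 0.00 with normexp background correction.

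miR-335-5p, made from the imprinted gene Mest, was at 6.88, 6.76, 6.96, 6.22, 6.12 and 6.63 against 6.96, 6.62, 6.96 and 7.07, a difference of −0.31 ± 0.18. miR-34b-3p, a p53-induced miRNA, was at 6.20, 6.48, 5.99, 4.46, 5.97 and 5.10 against 6.56, 6.29, 6.20 and 5.89, a difference of −0.53 ± 0.33. In both, the low exposed values came from among Printex 90 mice 4, 5 and 6. The passenger strand miR-7b* was at 5.81, 6.33, 5.56, 4.08, 5.42 and 4.63 against 6.30, 5.99, 6.01 and 5.62 (difference −0.67 ± 0.39). Passenger strand miR-15a* was at 5.42, 5.67, 5.30, 4.08, 4.89 and 4.32 against 5.75, 5.47, 5.46 and 5.00 (difference −0.47 ± 0.29). Mouse 4 lay at the floor for both. let-7d* was at 6.31, 6.44, 6.32, 5.16, 6.02 and 5.72 against 6.42, 6.35, 6.57 and 6.04 (difference −0.35 ± 0.22). miR-5127 was at 4.82, 5.15, 4.80, 4.08, 5.18 and 4.33 against 5.51, 5.36, 5.22 and 5.02 (difference −0.55 ± 0.33). Without the 3 mice these 6 differences were −0.04, −0.01, −0.08, 0.04, 0.01 and −0.35 in the order given, and only that of miR-5127 stayed below −0.10.

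The guide strands miR-15a and let-7d, chosen after their values were seen, were near vehicle. The guide miR-7b was detected on 0 arrays of either group and was not tested. miR-15a, the guide of the miR-15a hairpin, was at 0.07 ± 0.07, where miR-15a* was at −0.47, and let-7d was at 0.08 ± 0.11, where let-7d* was at −0.35. Both guides were at −0.01 without the 3 mice with dimmer arrays.

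Proliferation-linked guide strands of the miR-17 and miR-106b clusters had small positive differences. They share clusters or seeds and were measured on the same arrays, so they are not separate observations. All 8 tested members of this list were above vehicle, with a median of 0.11 and a range of 0.02 to 0.17. The median of all tested miRNAs was −0.07, with 108 of 306 above vehicle. That of the 102 brightest was 0.02, with 55 above. With no scaling 0 of 8 were above vehicle, with a median of −0.08 beside −0.24 for all, and 0 passed. Passenger strands of the chromosome 14 cluster, outside the list, lay on both sides, with miR-17* at 0.12 ± 0.11 and miR-18a* at −0.35 ± 0.26. Without the 3 mice with dimmer arrays they were at −0.04 and 0.07. miR-25, which lies with miR-93 and miR-106b in an intron of the replication gene Mcm7 on chromosome 5, was at 7.92, 7.97, 7.93, 8.22, 7.93 and 8.23 in exposed and 7.75, 7.92, 7.93 and 7.85 in vehicle hearts. All 6 exposed values were above the vehicle mean, and the difference was 0.17 ± 0.10. Its neighbours miR-106b and miR-93 were at 0.15 ± 0.10 and 0.13 ± 0.11.

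miR-19a, of the miR-17 cluster on chromosome 14, was at 7.15, 7.12, 7.09, 7.12, 7.08 and 7.29 against 7.08, 7.04, 7.02 and 7.05. Of 6 exposed values 5 lay above every vehicle value, yet the step was only 0.09 ± 0.06, or 1.07-fold. miR-20a was at 8.21, 8.15, 8.22, 8.44, 8.04 and 8.38 against 8.11, 8.05, 8.16 and 8.15 (difference 0.12 ± 0.08), and miR-106b at 8.26, 8.32, 8.24, 8.43, 8.49 and 8.74 against 8.16, 8.24, 8.33 and 8.32. In each the groups overlapped, and each of miR-19a, miR-20a, miR-25 and miR-106b turned negative with no scaling. Without the 3 mice with dimmer arrays 8 of 8 stayed above vehicle, with a median of 0.06. Of all 306 tested miRNAs 175 were then above vehicle, with a median of 0.02. The difference was then 0.08 for miR-25, 0.01 for miR-106b, 0.07 for miR-93, 0.07 for miR-19a and 0.08 for miR-20a. Within slides the family's median was between 0.07 and 0.12.

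There were 3 further miRNAs among the 10 higher values with the smallest p. miR-15b, of the growth-limiting miR-15 family, was at 9.16, 9.23, 9.15, 9.40, 9.63 and 9.63 against 8.93, 9.21, 9.23 and 9.29, a difference of 0.20 ± 0.13. miR-31 was at 5.03, 4.95, 5.08, 5.35, 5.46 and 5.09 against 5.09, 5.18, 4.84 and 4.82 (difference 0.18 ± 0.11). miR-3085-3p was at 4.50, 4.24, 4.51, 4.19, 5.22 and 5.29 against 4.14, 4.49, 4.08 and 4.49, a difference of 0.36 ± 0.19, and was detected on 2 of 6 and 2 of 4 arrays. For both miR-15b and miR-3085-3p the highest exposed values came from Printex 90 mice 5 and 6. Without the 3 mice with dimmer arrays the differences were 0.02 for miR-15b, 0.04 for miR-31 and 0.12 for miR-3085-3p.

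Of the tested heart muscle miRNAs 0 passed. miR-1a, the dominant muscle miRNA, was at 16.04, 15.87, 16.05, 16.05, 16.07 and 16.11 in exposed and 16.10, 15.78, 16.04 and 16.07 in vehicle hearts. The groups coincided, with a difference of 0.03 ± 0.07 and a 95% interval of 0.920-fold to 1.14-fold. Its transcript partner miR-133a was at −0.10 ± 0.10 and miR-133b at −0.08 ± 0.10.

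miR-208a-3p, from an intron of the adult heart myosin gene Myh6, was at 8.95, 9.02, 8.83, 8.51, 8.70 and 8.83 against 9.20, 8.99, 8.81 and 8.69, a difference of −0.12 ± 0.11. Exposed and vehicle values overlapped over most of their range, and the difference was 0.06 with scaling on all probes and 0.01 without the 3 mice with dimmer arrays. miR-208b, from the gene of the slow myosin that re-appears in failing hearts, was at 0.03 ± 0.16, and miR-499, from Myh7b, at −0.12 ± 0.15, which was 0.07 without the 3 mice. Of 9 tested muscle miRNAs 2 were above and 7 below vehicle (median −0.08, or 0.09 with scaling on all probes), close to the −0.07 of all tested miRNAs, and 0 passed.

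For other cell types of the heart 0 listed miRNAs passed. The endothelial list had 3 of 13 members above vehicle and a median of −0.04 (0.13 with scaling on all probes), with miR-126-3p, the main endothelial miRNA, at −0.04 ± 0.08, a 95% interval of 0.864-fold to 1.09-fold. Of 9 tested fibroblast and matrix miRNAs 8 were above vehicle, with a median of 0.05, which became −0.14 with no scaling and −0.04 without the 3 mice with dimmer arrays. The collagen-limiting miR-29b was at 0.05 ± 0.09 (−0.14 with no scaling). Both tested smooth muscle miRNAs, miR-143 and miR-145, were above vehicle (median 0.11, but −0.08 with no scaling and −0.10 without those mice). Without Printex 90 mouse 5 their differences were −0.15 and −0.14. miR-210, the miRNA of hypoxia, was at 0.04 ± 0.09, and p53-induced miR-34a at −0.05 ± 0.08. Their list of 6 tested miRNAs had 2 above vehicle and a median of −0.03 (0.05 with normexp correction). All 9 let-7 guides were above vehicle, from 0.01 to 0.10, but with no scaling 0 of 9 were, and without the 3 mice with dimmer arrays 2 of 9 were.

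The remaining families had members on both sides. Of 6 tested miRNAs of the miR-15/16 family 3 were above vehicle (median −0.01), and of 5 miR-30 guides 2 were (median −0.02). Of 6 tested Dlk1-Dio3 miRNAs 5 were below (median −0.10, but 0.09 with normexp correction). Of 3 nervous system miRNAs 1 was above. Of 9 late entries of the miRNA registry, whose names carry high numbers, 4 were above (median −0.01).

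**Figure D3:**
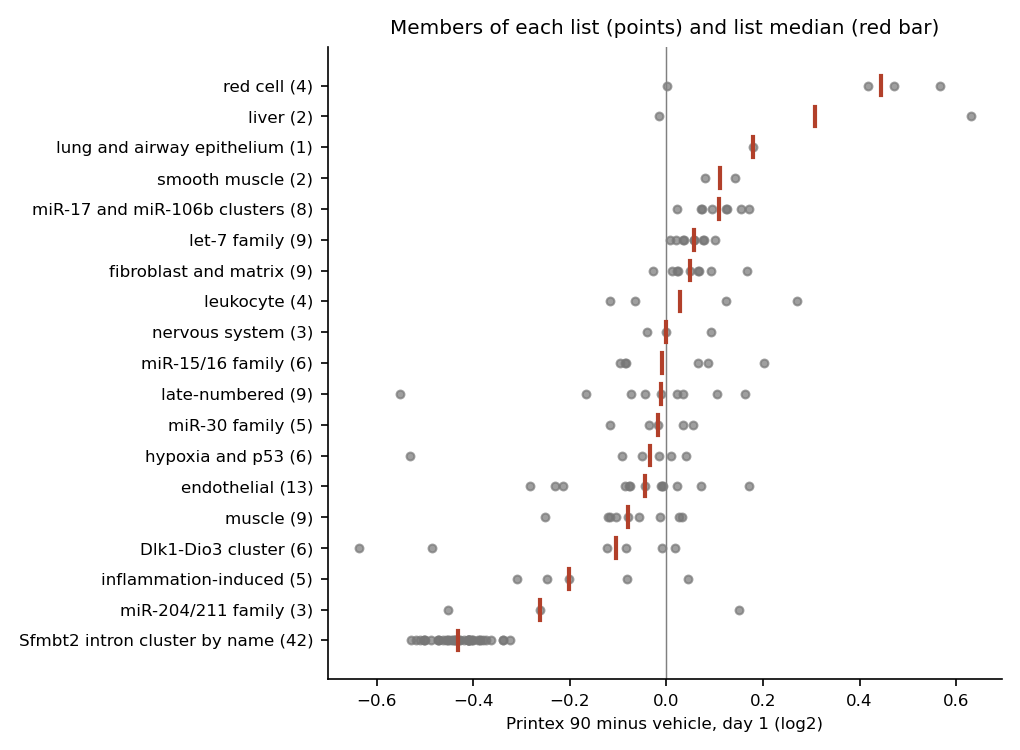
Log2 difference (Printex 90 minus vehicle, day 1) of each tested member of 19 lists, 1 point per miRNA, with the list median as a red bar and the number of tested members in brackets. Most lists lie around 0, the red cell list has its median at 0.44, and the Sfmbt2 names cluster at −0.43.

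The most uniform pattern was in miRNAs named miR-297, miR-466, miR-467 and miR-669, most of which come from a large rodent cluster in an intron of the imprinted gene Sfmbt2. By RefSeq positions 34 of the 42 tested members lay in Sfmbt2 on chromosome 2, 7 were matched elsewhere and 1 was not matched. All 42 were below vehicle, from −0.53 to −0.32, beside 198 of all 306 tested miRNAs, and 0 passed. After normexp correction 4 of the 42 were above it, beside 197 of all 306. Members within Sfmbt2 had a median of −0.44 and the 7 from other loci, among them miR-466i-3p, miR-466q, miR-467f and miR-669n shown above, a median of −0.41. Members in and outside the cluster thus had like medians.

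Some of the lower miRNAs, from different loci, held a repeat, and others held none. All 12 tested miRNAs with a matched sequence that held ACACAC or GUGUGU were below vehicle, with a median of −0.41, against 51 of 82 and a median of −0.06 for those without it. They were 6 of the names matched outside Sfmbt2 and 6 others, miR-1187 (−0.45), miR-3082-5p (−0.41), miR-574-5p (−0.39), miR-574-3p (−0.35), miR-329 (−0.49) and miR-362-3p (−0.09). Among the 82 without the repeat, miR-7b* (−0.67), miR-34b-3p (−0.53) and miR-15a* (−0.47) were as low, and 31 were above vehicle. Only 94 of 306 names could be matched to a sequence, and 0 of the 34 members within Sfmbt2, so that the repeat says nothing of those. A name matched if it was identical in RefSeq or was among the 44 looked up, as miR-144*, miR-302c and miR-329 were. The 94 were thus partly picked from these results, and the 82 are no neutral background. The motif was looked for after the values were seen, and no test was made of it.

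Among exposed mice the pattern lay in 3. Relative to the vehicle mean, the 12 repeat miRNAs had medians of 0.15, 0.15, 0.20, −1.59, −0.78 and −0.58 in Printex 90 mice 1 to 6, and of 0.35, 0.18, 0.00 and −0.51 in vehicle mice 1 to 4. Mice 4, 5 and 6 were low and mice 1, 2 and 3 high, and vehicle mouse 4, at −0.51, was near mouse 6. Of the sequences shown above, miR-574-5p was at 8.05, 8.02, 8.16, 6.37, 7.06 and 7.31 in exposed and 8.23, 8.11, 7.92 and 7.31 in vehicle hearts. The 42 names split the mice in the same way. They were at 0.12, 0.22, 0.18, −1.68, −0.73 and −0.73 in exposed mice, and at 0.20, 0.16, 0.07 and −0.46 in vehicle mice. Without mice 4, 5 and 6, 42 of the 42 names were above vehicle, with a median of 0.17, and 10 of the 12 repeat miRNAs were. Of all 306 tested miRNAs 175 were then above it. The 42 names come mostly from a shared cluster and were measured on the same arrays, so they are not 42 separate observations. Without Printex 90 mouse 4 alone, the median was −0.18 for the 42 names and −0.17 for the 12 repeat miRNAs. Among exposed mice the low ones had the smaller share of spots well above background. Printex 90 mouse 4 was lowest at a share of 22.4%, and mouse 5, at 19.2%, was less low. Vehicle mouse 4 was low at 25.3%, and vehicle mouse 1, at 24.2%, was not. A fit with the share as a covariate gave the 42 names a median of −0.11, beside −0.43 without the covariate. Beyond that fit the part of brightness was not tested. Within slides the median of the 42 names was −0.82 on slide 1 and −0.30 on slide 2. It was −0.09 on slide 3 and 0.05 on slide 4. Slides 1 and 2 were scanned in 1 session and slides 3 and 4 in another. Printex 90 mice 3, 4, 5 and 6 and vehicle mice 3 and 4 were on slides 1 and 2. Of the day 1 mice, slide 1 held Printex 90 mice 3 and 4 and vehicle mouse 3, and only Printex 90 mouse 4 was low there. Slide 2 held Printex 90 mice 5 and 6 and vehicle mouse 4, all of which were low. With the slide as a block the median was −0.37, and the part of slide or session was not tested further.

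**Figure D4:**
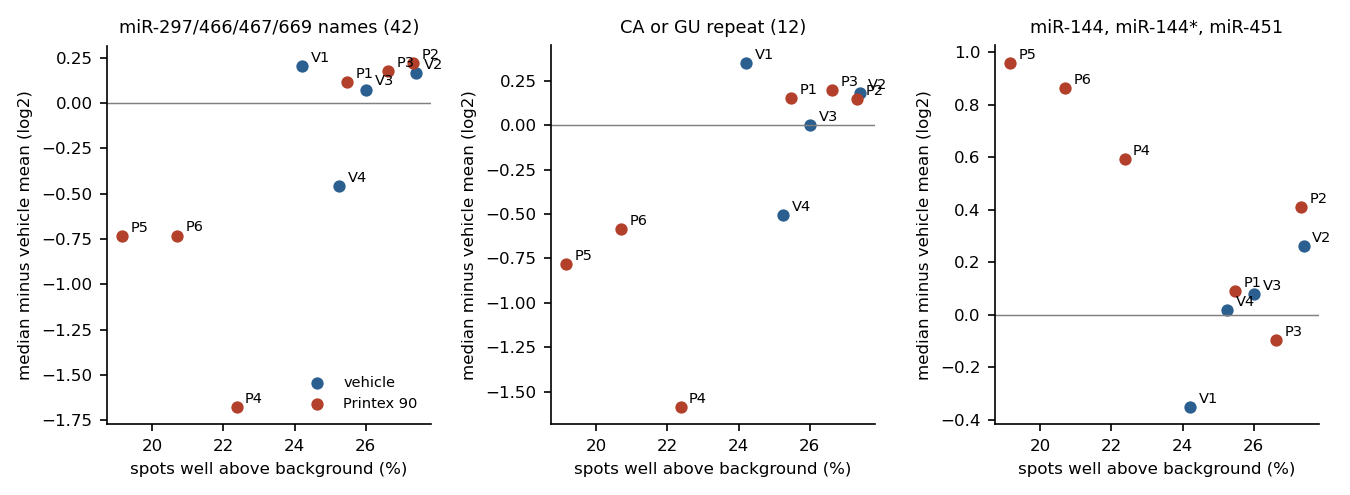
Median log2 level relative to the vehicle mean in each day 1 mouse, for 42 miR-297, miR-466, miR-467 and miR-669 names, 12 miRNAs with a CA or GU repeat, and the 3 miRNAs of the miR-144 and miR-451 locus, against the share of spots well above background (%). Printex 90 mice (P) 4, 5 and 6, with shares under every vehicle mouse (V), are lowest in the left and middle panels and highest in the right panel.

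Detection showed the same split. On the 6 Printex 90 arrays 311, 339, 316, 279, 238 and 261 miRNAs were detected, and on the 4 vehicle arrays 298, 333, 315 and 312. Of the 356 miRNAs detected on 1 array or more, 24 were detected on 4 of 4 vehicle arrays and on at most 3 of 6 Printex 90 arrays. Mice 4, 5 and 6 lacked all 24, miR-206, miR-15a*, miR-18a* and miR-195* among them. Their arrays had the fewest detected miRNAs, so a rule of at most 3 arrays tends to pick miRNAs missing there. In the other direction, 13 miRNAs were detected on Printex 90 arrays only and 6 on vehicle arrays only, with 6 arrays against 4. The 102 miRNAs of middle signal had a median difference of −0.14, the 102 dimmest −0.13 and the 102 brightest 0.02. Without mice 4, 5 and 6 these medians were 0.03, 0.06 and 0.0008. Printex 90 mouse 4 alone had 96 miRNAs more than 1 log2 unit below the vehicle mean, mouse 6 had 26, and every other mouse had 5 or fewer. For 11 miRNAs mouse 4 lay over 1 log2 unit below all 9 others, with the widest gap for miR-744*, at 5.65 where the next mouse was at 7.09.

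Single exposed mice stood far out for small groups of miRNAs, which were picked after their values were seen and are described with no test. miR-140, made from an intron of Wwp2 and best known from cartilage, was at 10.11 in Printex 90 mouse 5 and between 7.06 and 7.46 in the other 9 hearts, so that mouse 5 was 6.30-fold above the next. The other arm of the hairpin, miR-140*, was at 9.57 there and between 6.97 and 7.38 elsewhere. Smooth muscle miR-143 was at 11.65 in mouse 5 and between 9.81 and 10.13 in the others. Its cluster partner miR-145 was at 7.83, against 6.39 to 6.71.

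Other miRNAs were high in the same heart. There miR-193, miR-193b and miR-365 stood 1.11, 0.85 and 0.91 log2 units above the vehicle mean, and miR-214 and miR-21 0.76 and 0.68. The first 2 share a seed, and miR-193b and miR-365 are neighbours on chromosome 16:
miR-140*: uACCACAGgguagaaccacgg
miR-193: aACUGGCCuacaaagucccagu
miR-193b: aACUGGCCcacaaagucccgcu
miR-365: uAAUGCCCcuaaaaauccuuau
Of the heart markers in mouse 5, miR-1a was at 16.07, within the vehicle range, and miR-499 and miR-133a, at 10.64 and 13.28, were below it, as they were in mouse 4, at 10.63 and 13.69. Whether the makeup of the section differed in this mouse was not tested. Without mouse 5 the group difference was −0.02 for miR-140, where it was 0.46 with it, and for miR-143 −0.15 in place of 0.14. Among the 19 arrays of days 3 and 28 miR-140 was between 7.18 and 8.92.

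Levels of miR-376c, miR-302c and miR-3063 varied together across mice without regard to group. miR-376c was at 5.68, 4.28, 8.68, 4.10, 5.10 and 4.92 in exposed and 4.08, 7.41, 7.42 and 5.48 in vehicle hearts, a range of 4.60 log2 units. miR-302c, known from embryonic stem cells, was at 4.90, 4.40, 8.14, 4.08, 4.78 and 4.59 against 4.08, 6.71, 7.27 and 5.55, and miR-3063 at 5.81, 4.62, 8.71, 4.08, 5.36 and 4.90 against 4.08, 7.53, 7.74 and 5.72. Printex 90 mouse 3 and vehicle mice 2 and 3 were high for all 3, and Printex 90 mouse 4 and vehicle mouse 1 lay at or near the floor. miR-30b* was also highest in Printex 90 mouse 3, at 7.38 against 4.97 to 6.22 in the other 9. On the arrays of days 3 and 28 miR-376c spanned 4.08 to 7.44. The differences were −0.64 ± 0.93, −0.75 ± 0.78 and −0.69 ± 0.95, that of miR-302c the largest in size of all 306, and none was larger than its SE.

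Liver miR-122 was likewise scattered, at 4.52, 7.28, 8.00, 7.51, 6.62 and 5.09 in exposed and 6.33, 6.32, 6.34 and 4.50 in vehicle hearts. Of 6 exposed values 4 lay above every vehicle value and the difference was 0.63 ± 0.73, with a 95% interval from 0.548-fold to 4.38-fold. The other tested liver miRNA, miR-192, was at −0.02 ± 0.09.

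**Figure D5:**
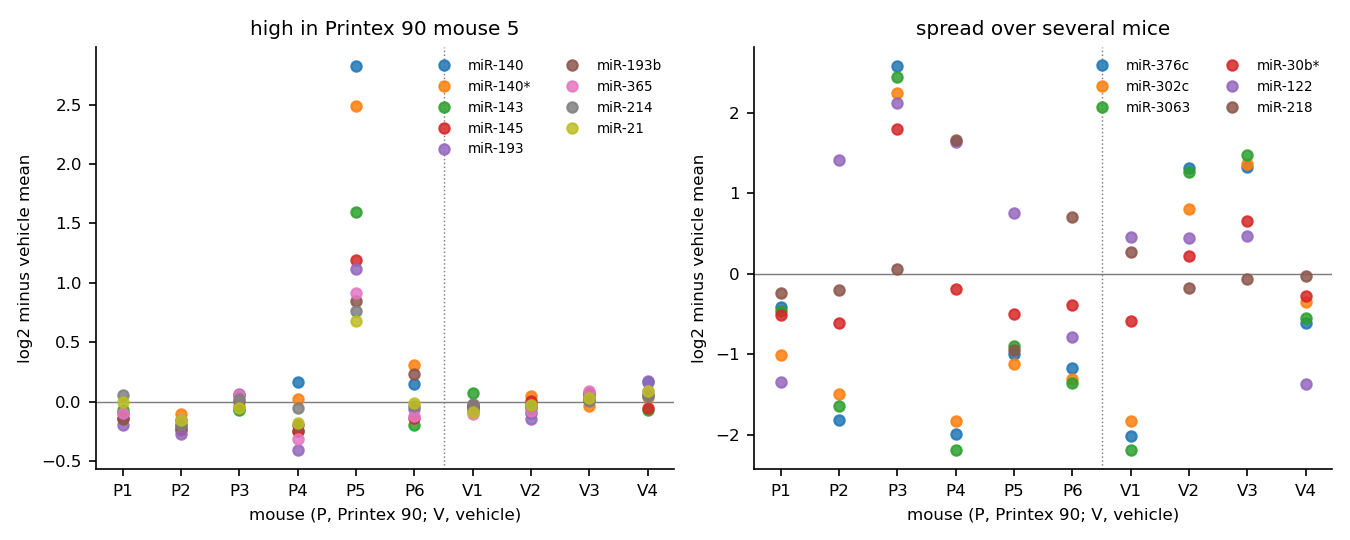
Log2 level relative to the vehicle mean in each day 1 heart (P1 to P6, Printex 90; V1 to V4, vehicle) for miRNAs high in Printex 90 mouse 5 (left) and for miRNAs spread over several mice (right), 1 point per miRNA and mouse. On the left mouse 5 stands apart with miR-140 at 2.82; on the right P3, V2 and V3 are high and P4 and V1 low for miR-376c, miR-302c and miR-3063.

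The difference on day 1 was also set against those on days 3 and 28, measured in other mice. By limma the day 1 difference departed from that on day 3 for 0 of 306 miRNAs (0%; smallest adjusted p = 0.735, with 2, or 0.654%, at an unadjusted p under 0.05) and from that on day 28 for 0 of 306 (0%; smallest adjusted p = 0.484, with 3, or 0.98%, unadjusted). The smallest p for day 3 belonged to miR-10b, a Hox-cluster miRNA, at −0.23 on day 1 and 0.70 on day 3. miR-204 followed, at −0.26 and 0.08, and miR-335-5p, at −0.31 and 0.20. Against day 28 they were miR-31, at 0.18 and −0.18, miR-3112*, at −0.40 and 0.37, and miR-3102-3p.2, at −0.27 and 0.38. miR-451 was at −0.18 on day 3 and 0.42 on day 28, beside 0.47 on day 1, and the Sfmbt2 names had medians of 0.12 and 0.38 beside −0.43.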

How the data were processed

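The deposited scanner files of 1-colour Agilent miRNA arrays (Cy3) were used, with 1 array per mouse. Per the file headers, Feature Extraction 10.7.3.1 gave each spot a background-subtracted intensity and flags for outliers and for signal well above background. The deposited value table holds log2 intensities of the authors, whose scaling is not given in the sources used here, and served as an alternative.

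Processed intensities were averaged per probe over spots not flagged as outliers and called detected where at least 0.5 of the spots were well above background. Each array was then divided by its 75th percentile, taken over 418 probes that were detected on every one of the 29 arrays with signal, floored at 16.9, converted to log2 and averaged over the probes of a miRNA. Probes detected on 4 or more arrays in 1 or more groups were kept, which left 306 miRNAs (621 probes). All groups of days 1, 3 and 28 were fitted together in limma 3.58.1 (R 4.3.3), with Benjamini-Hochberg adjustment over all 306 and a threshold of 0.05. SE and 95% intervals come from that fit, and each day 1 effect had 23 residual degrees of freedom. The p-values measure the spread between the mice of a group. On the 10 day 1 arrays 1.84% of values lay at the floor, and precision is limited by how many arrays there are. The fit was tested on simulated data.

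By plan, the miRNAs given by name were the 10 smallest p among higher and among lower miRNAs, a fixed set of markers and losses of detection. The plan also held up to 3 miRNAs per difference between days and the members of lists. These were all tested members of the muscle, blood, inflammation, miR-204, smooth muscle and liver lists, and up to 4 of each other list. The differences of muscle members miR-133a*, miR-206 and miR-208a-5p enter only the list's counts and medians. Other miRNAs, such as those named for single mice or for the repeat, were picked after their values were seen. The lists and members were chosen with earlier results of these data known. The alternatives were other scalings, normexp on the median pixel signal (the planned mean signal is not a column of these files), other summaries and filters, the slide as a block, brightness as a covariate, day 1 arrays alone and leaving out each mouse. Leaving out the 3 dimmest arrays was added after seeing the data. RefSeq positions (GRCm38.p6) were matched for 289 of 306 miRNAs.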

Additional observations from a re-analysis of the deposited data

Results flagged for a closer look

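In 14 of the 162 groups of values tested for a mouse far from the others of its group (8.64%) the gap passed Dixon's critical value; chance marks about 1 in 20. The number given is the gap to the nearest mouse as a share of the group's range. Of the 14, 6 were in Printex 90 mouse 5. It was highest for miR-143 (0.901), miR-21 (0.793), miR-145 (0.787) and miR-214 (0.737), and lowest for miR-30a (0.709), at 11.25 where the others were between 11.40 and 11.46, and for brain-enriched miR-128 (0.668), at 6.76 where the others were between 7.07 and 7.22.

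Vehicle mouse 4 was lowest for miR-122 (0.988), miR-150 (0.86) and miR-5107 (0.839). The lymphocyte miRNA miR-150 was at 5.89 there and between 6.27 and 6.33 in the other vehicle mice, and miR-5107 at 5.27, where they were between 5.77 and 5.86. Vehicle mouse 2 was lowest for miR-29c* (0.88), at 6.06 against 6.27 to 6.30.

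The remaining 4 were in other exposed mice. Printex 90 mouse 2 was lowest for miR-1a (0.691), at 15.87 against 16.04 to 16.11. Mouse 3 was highest for miR-376c (0.654). Mouse 6 was highest for miR-19a (0.64), at 7.29 against 7.08 to 7.15, and lowest for miR-29a* (0.65), at 4.57 against 4.93 to 5.13.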

How the results depend on the processing

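Under all 23 alternatives to the day 1 comparison limma called 0 miRNAs, with a smallest adjusted p between 0.456 and 0.995 and 0 to 7 miRNAs at an unadjusted p under 0.05. For the differences between days 22 alternatives each also gave 0 calls (smallest adjusted p 0.571 to 0.999 against day 3 and 0.305 to 0.998 against day 28, with at most 6 and 24 at an unadjusted p under 0.05). The share of miRNAs above vehicle, 35.3% as reported, was 63.4% with scaling on all probes, 52.6% with quantile normalization, 3.92% with no scaling, 64.4% with normexp correction, 60.1% with the deposited value table and 57.2% without the 3 dimmest arrays. The median difference of all miRNAs under these settings was 0.11, 0.01, −0.24, 0.04, 0.03 and 0.02. Of 80 named miRNAs, 65 changed sign under 1 alternative or more and 15 under none, miR-451, miR-144, miR-144*, miR-204 and miR-146a among the 15. The labels give the mice no shared replicate numbers, so no exposed mouse was paired with a vehicle mouse by label. The slide, which holds mice of both groups, was fitted as a block instead and gave 0 calls (smallest adjusted p = 0.748 by limma, 3 unadjusted). With 6 and 4 mice, differences of dim miRNAs were bounded less closely than those of bright ones.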
